A study of Mus musculus with 2 samples.

Results

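The genes described are 5 mouse Ly6 genes, Ly6a, Ly6c1, Ly6c2, Ly6d and Ly6e, with Thy1, chosen by gene symbol in RNA-seq data (polyadenylated RNA) from regulatory T cells labelled inflammation-experienced. They are 6 of the 55536 annotated genes in the larger of the 2 gene tables deposited for each library, and 6 of the 22195 genes of the smaller table that could be matched to the same annotation. Per the labels, these primary cells came from 7-week-old male mice, and activated regulatory T cells were their origin. No genotype, strain or agent is named, no second condition was sampled, and the labels count the 2 libraries as technical replicates of 1 biological replicate. The 2 libraries, called library 1 and library 2, therefore form 1 group, and every SD below (n = 2) measures the spread between technical libraries and not between animals.

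Ly6 proteins are small surface proteins with a three-finger fold held by disulfide bonds, and most are tethered to the outer face of the membrane by a glycosylphosphatidylinositol (GPI) lipid anchor. Thy1 (CD90) shares the GPI anchor but has an immunoglobulin fold, and in mice it marks thymocytes and peripheral T cells. Ly6a encodes Sca-1, which marks blood stem cells and is induced on activated T cells and by interferon. Ly6c1 and Ly6c2 together encode the Ly6C antigen of monocytes and of subsets of T cells, and Ly6c1 is also transcribed in endothelium. Ly6d encodes ThB, an antigen of early B lineage cells, B cells and thymocytes. Ly6e encodes TSA-1 (Sca-2), found on immature thymocytes and activated lymphocytes, and in mice it is the receptor for the placental fusion protein syncytin-A.

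The large tables held 26593267 expected counts in library 1 and 22036331 in library 2. The small tables held 7911181 and 6972139 counts. The T cell label held against its markers, since all 10 T cell genes reached 1 TPM (a transcript level divided by length and scaled to a fixed sum per library) in both libraries, with Foxp3 at 87.27 in library 1 and 87.39 in library 2. The libraries differed widely in other ways. Of 24253 genes tested, 70.3% were called different, 23.9% higher in library 1 and 46.4% higher in library 2 (exact binomial test per gene, 2-sided, Benjamini-Hochberg adjusted p under 0.05). That test covers counting error only and compares these 2 libraries, not conditions. The 6 erythroid markers summed to 8494 TPM in library 1 and 94.67 TPM in library 2, and the 8 macrophage markers to 6.51 in library 1 and 90.74 in library 2.

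Ly6c1 and Ly6c2 are close copies, and how far their reads can be told apart bears on every value of both. The first 300 bases of their coding sequences are therefore shown, 5′ to 3′ with introns removed, with each base that differs between them in capitals (mm10, GENCODE M21; Ly6c1-201, bases shown within chr15:75045498-75048511, minus strand, and Ly6c2-201, within chr15:75108639-75111667, minus strand).
Ly6c1: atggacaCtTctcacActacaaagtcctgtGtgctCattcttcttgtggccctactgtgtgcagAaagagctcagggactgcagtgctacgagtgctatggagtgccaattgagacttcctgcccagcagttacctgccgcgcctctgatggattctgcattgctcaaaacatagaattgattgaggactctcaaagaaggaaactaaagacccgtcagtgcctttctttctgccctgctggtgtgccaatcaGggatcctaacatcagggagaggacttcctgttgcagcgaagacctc
Ly6c2: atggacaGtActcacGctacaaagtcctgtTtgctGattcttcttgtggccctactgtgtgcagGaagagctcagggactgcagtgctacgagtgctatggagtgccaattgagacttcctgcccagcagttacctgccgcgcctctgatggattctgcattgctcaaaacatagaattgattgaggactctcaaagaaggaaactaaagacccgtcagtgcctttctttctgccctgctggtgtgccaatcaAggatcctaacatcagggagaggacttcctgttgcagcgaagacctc
The whole coding sequences run to 396 bases each with 0 gaps in the alignment, and they differ at 9 positions, 7 of them in the stretch shown, which is an identity of 97.7%. Counted from the first coding base, with the Ly6c1 base first, the differences are C8G, T10A, A16G, G31T, C36G, A65G, G254A, T327C and G376A. The first 6 differences lie near the start, and the longest identical run that follows is 188 bases. Ly6a is more distant, with a coding identity of 82.0% to Ly6c1 and 81.7% to Ly6c2. The other pairs among the 6 genes lie between 47.3% and 53.5%.

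Over whole transcripts, 23.2% of all 75-base windows of Ly6c1-201 and 21.9% of those of Ly6c2-201 also occur letter for letter in a transcript of another gene. For Ly6c2 that gene is Ly6c1 alone, and for Ly6c1 it is Ly6c2 or, in 1.95% of windows, Ly6a. At windows of 50 bases, the size that the deposited effective lengths correspond to, the shares were 36.7% for Ly6c1 and 33.0% for Ly6c2. Ly6a-201 shared 0.805% of its 75-base windows, all with Ly6i. At 50 bases it shared 8.05%, with Ly6i, Ly6c1, Ly6c2 and the pseudogene I830127L07Rik. The main transcripts of Ly6d, Ly6e and Thy1 shared 0 windows at 50, 75 or 100 bases. The deposited tables also give the uncertainty of read assignment. The posterior SD of the Ly6c2 count was 15.82 counts in library 1 and 21.16 counts in library 2, which is 2.53% and 1.72% of the count, and for Ly6c1 it was 0.434% and 0.563%. It was 0 counts for Ly6d, Ly6e and Thy1. No other annotated gene overlaps any of the 6.

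Ly6e stood far above the rest. Ly6e (ENSMUSG00000022587.14, chr15:74955051-74959905, plus strand) had 2248.95 TPM in library 1 and 2381.18 TPM in library 2, a mean of 2315 ± 93.5 (SD, n = 2). That is rank 33 of the 13718 genes detected, that is with 1 TPM or more in each library. It carried 65.9% of the summed TPM of the 6 genes in library 1 and 63.8% in library 2. Ly6a (ENSMUSG00000075602.10, chr15:74994877-74998031, minus strand) had 685.74 TPM in library 1 and 747.62 TPM in library 2, a mean of 716.7 ± 43.8 and rank 168. For scale, Ly6e stood above the T cell kinase gene Lck, which averaged 1228 TPM, and Ly6a lay between the T cell receptor complex genes Cd3d, at 605.4 TPM, and Cd3g, at 1163 TPM.

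Ly6c1 (ENSMUSG00000079018.10, chr15:75044018-75048830, minus strand) had 277.34 TPM in library 1 and 351.16 TPM in library 2, a mean of 314.25 ± 52.2 and rank 466. Ly6c2 (ENSMUSG00000022584.14, chr15:75108158-75111970, minus strand) had 46.35 TPM in library 1 and 111.74 TPM in library 2, a mean of 79.05 ± 46.2 and rank 2552. Of the Ly6C pair, Ly6c1 was therefore the more abundant in both libraries, while Ly6c2 had the widest spread between libraries of the 6, relative to its mean.

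Thy1 (ENSMUSG00000032011.5, chr9:44043384-44048579, plus strand) had 122.41 TPM in library 1 and 121.85 TPM in library 2, a mean of 122.13 ± 0.396 and rank 1545. It is the member that differed least between the libraries on this scale. Ly6d (ENSMUSG00000034634.7, chr15:74762056-74763620, minus strand) had 31.30 TPM in library 1 and 21.42 TPM in library 2, a mean of 26.36 ± 6.99 and rank 6182, near the middle of the detected genes.

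From high to low by TPM, the order was Ly6e, Ly6a, Ly6c1, Thy1, Ly6c2 and Ly6d in both libraries. Each neighbour stood 1.55 to 3.23 times above the next. The step between Thy1 and Ly6c2, 43.1 TPM, was smaller than their combined SD of 46.2, so these neighbours did not differ beyond the spread. The step between Ly6c2 and Ly6d, 52.7 TPM, exceeded its combined SD of 46.7, and the 3 steps above Thy1 exceeded theirs by a wide margin. In all, the 6 genes took 0.2067% of the counts of library 1 (95% Wilson interval 0.2049 to 0.2084) and 0.222% of those of library 2 (0.220 to 0.2239).

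**Figure D1:**
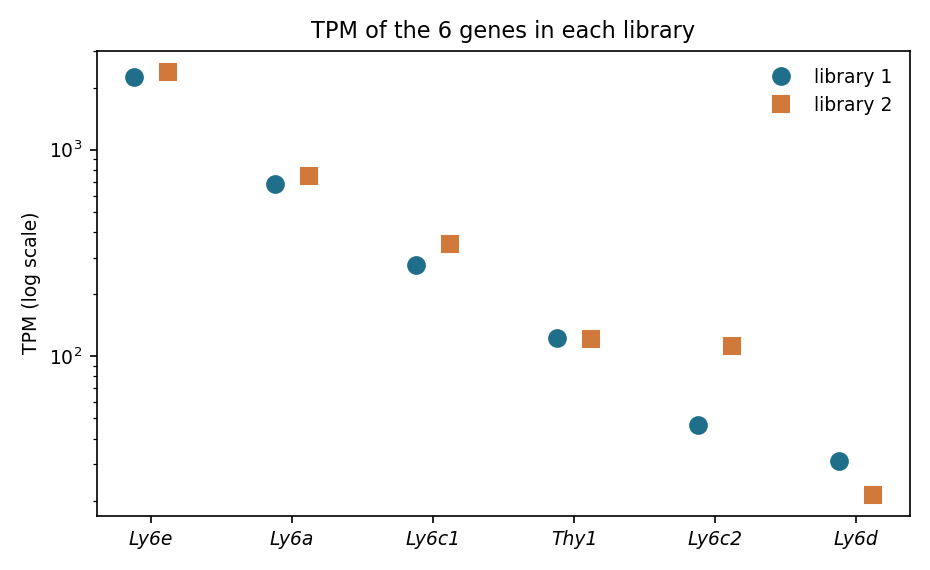
TPM (log scale) of the 6 genes in library 1 (circles) and library 2 (squares), ordered by mean TPM, with 1 point per technical library. The order of the genes is the same in both libraries, and Ly6c2, at 46.35 in library 1 and 111.74 in library 2, shows the widest gap.

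All 5 Ly6 members lie on chromosome 15 in a stretch of 885 kb that runs between Psca and Gpihbp1 (chr15:74714839-75599481), a stretch chosen after the data had been seen. It holds 50 annotated genes, 25 of them protein-coding and many of them further Ly6 relatives. The 5 members made up 99.39% of the summed TPM of the stretch in library 1 and 99.09% in library 2. Of the other genes there, 6 were detected, and the most abundant, Them6, averaged a TPM of 6.51. In 23 genes the count was 0 in both libraries, among them Ly6g, the granulocyte antigen gene, for which 3 counts, the upper limit a count of 0 allows, are a CPM (counts scaled by the library total) of 0.113 in library 1 and 0.136 in library 2. Of 20 pseudogenes in the stretch, 2 had at least 10 counts summed over the libraries. Ly6i, with which Ly6a-201 shared its 75-base windows, had 0 counts in library 1 and 7.12 in library 2.

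**Figure D2:**
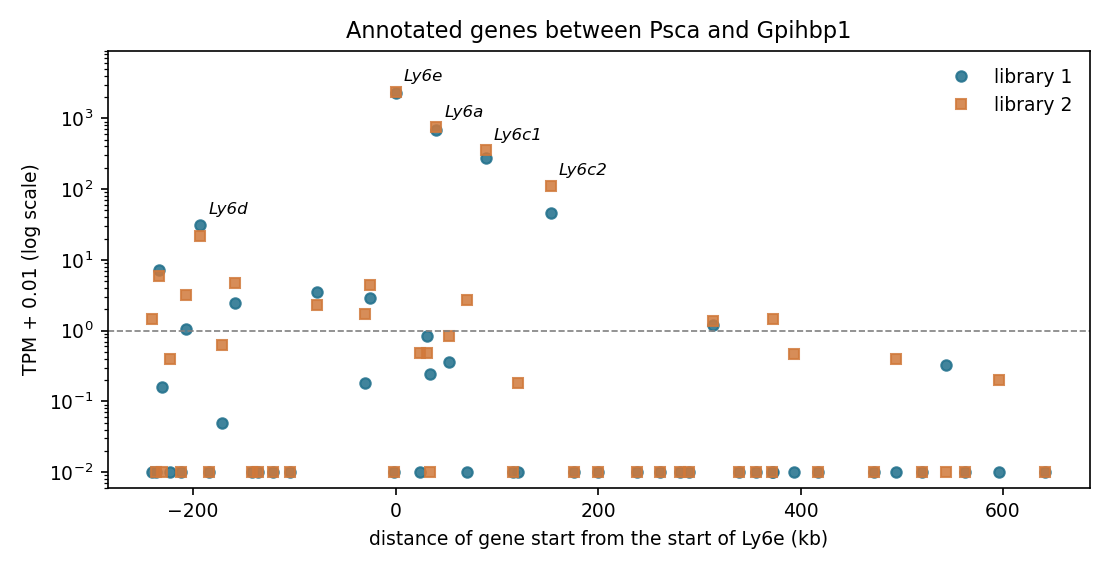
TPM + 0.01 (log scale) of every annotated gene between Psca and Gpihbp1 against the distance of its start from that of Ly6e in kb, in library 1 (circles) and library 2 (squares), with a dashed line at a TPM of 1. The 5 labelled members stand above all other genes of the stretch, and points at the bottom are genes listed at 0.

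The next comparison set the libraries against each other gene by gene, on counts divided by library totals. Of the 6 members, 5 were called different, beside 70.3% of all genes tested, a share from which nothing particular to the members can be read. Ly6d was called higher in library 1, beside 23.9% of all genes. Ly6c2, Ly6c1, Ly6a and Ly6e were called higher in library 2, beside 46.4% of all genes. The median log2 ratio of library 1 over library 2 was -0.11 over the members and -0.23 over all genes tested. Other scalings shift all genes together, since the median of the 13464 detected genes that were tested stood at -0.01 with library totals, 0.10 with TMM factors and 0.14 with DESeq2 size factors. Under either of these scalings 2 members were called higher in each library and 2 were not called. With TMM factors 70.6% of all genes were called, 30.1% higher in library 1 and 40.5% higher in library 2, and with DESeq2 size factors 71.2%, 32.1% and 39%.

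Ly6c2 showed the largest difference of the 6. It had 623.45 expected counts in library 1 and 1230.19 in library 2, so the shallower library held more of them. The log2 ratio was -1.25 (95% interval -1.394 to -1.112), a 2.38-fold higher level in library 2 (exact binomial test, adjusted p = 3.27e-72). Among 3981 genes with a mean TPM of at least 50, 0.477% had a ratio as large in either direction, and among all detected genes 6.78% had. With TMM factors the log2 ratio was -1.14 and with DESeq2 size factors -1.11. The gap between the libraries was many times the posterior SD of either count. The small table gave a smaller log2 ratio, -0.76, and the part of read assignment between the close copies in this difference was not tested.

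Ly6d ran the other way, with 361 counts in library 1 and 202 in library 2. The log2 ratio was 0.56 (0.314 to 0.822), a 1.48-fold higher level in library 1 (exact binomial test, adjusted p = 1.73e-05), and a ratio as large was seen in 26.2% of detected genes. It was 0.67 with TMM factors and 0.71 with DESeq2 size factors. Ly6c1 had 3608.62 counts in library 1 and 3730.55 in library 2, a log2 ratio of -0.32 (-0.386 to -0.253), or 1.25-fold higher in library 2 (adjusted p = 3.31e-20). Its log2 ratio was -0.21 with TMM factors and -0.17 with DESeq2 size factors. The direction of Ly6c2, Ly6c1 and Ly6d was thus kept under all 3 scalings.

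The other 3 genes differed by at most 0.11 in log2, and their direction depended on the scaling. Ly6e had 40226 counts in library 1 and 34724 in library 2, a log2 ratio of -0.06 (-0.080 to -0.038) that was called higher in library 2 with library totals (exact binomial test, adjusted p = 8.75e-08) but turned to 0.05 with TMM factors and 0.086 with DESeq2 size factors, both called higher in library 1. Ly6a had 8769.93 counts in library 1 and 7805.15 in library 2, a log2 ratio of -0.10 (-0.147 to -0.059; adjusted p = 1.2e-05) that became 0.006 and 0.042 under those scalings, with no call (adjusted p = 0.823 and 0.0837). Thy1 had 1369 counts in library 1 and 1222 in library 2, a log2 ratio of -0.11 (-0.22 to 0.005) that did not pass the test (adjusted p = 0.0832) and became 0.002 and 0.038. For these 3 genes no direction between the libraries can be stated.

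**Figure D3:**
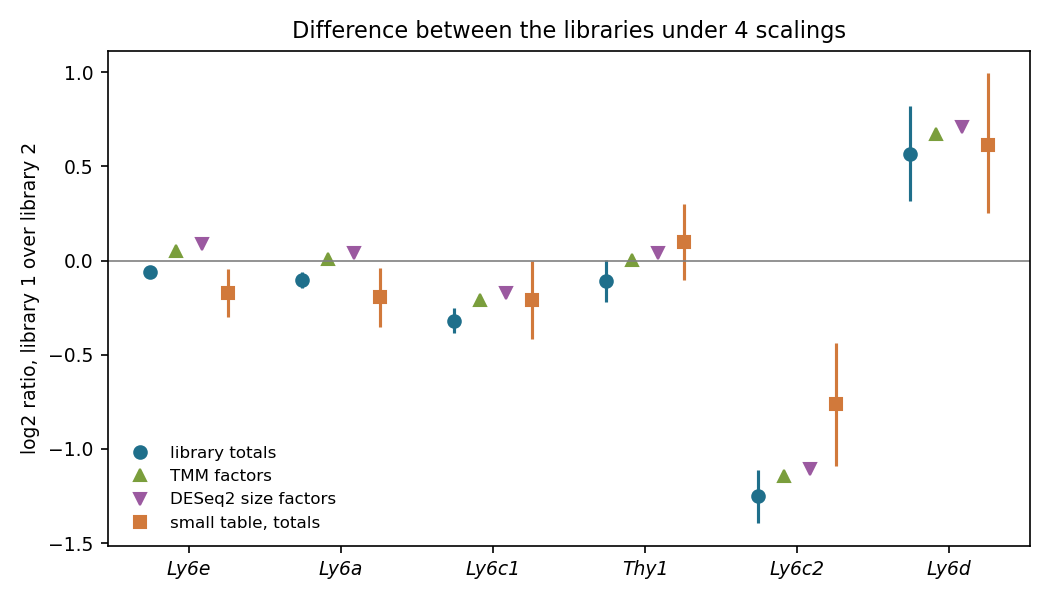
Log2 ratio of library 1 over library 2 for each gene, with counts scaled by library totals (circles), TMM factors (up triangles), DESeq2 size factors (down triangles) and in the small table by its totals (squares). Bars are 95% intervals of counting error, drawn for both scalings by totals, and Ly6c2 at -1.25 and Ly6d at 0.56 stand farthest from 0.

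Markers of other cells also differed between the libraries, not all in the direction of the genes they are set beside, and in bulk RNA fewer cells of a type cannot be told apart from less RNA per cell. The calls in each list stand beside 23.9% of all genes tested called higher in library 1 and 46.4% higher in library 2. Beside Ly6d, the 8 B cell markers summed to 186.7 TPM in library 1 and 141.2 TPM in library 2, with 5 called higher in library 1 and 2 higher in library 2. The highest of them, the B cell receptor chains Cd79b and Cd79a, had 65.19 and 56.28 TPM in library 1, and 42.84 and 40.59 TPM in library 2. The CD8 genes Cd8b1 and Cd8a were called higher in library 1 as well, at a summed TPM of 26.98 in library 1 and 13.51 in library 2. Of the plasmacytoid dendritic cell markers, library 1 was the higher for 2 of 5 tested and library 2 for 1, with summed TPM of 174.7 and 166.9, and Klk1 and Cox6a2 of that list were at 0 in library 1. The part of these cells in the Ly6d result was not tested.

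Beside Ly6c2 and Ly6c1, the 8 macrophage markers were all called higher in library 2, with C1qc, Spic, Cd5l and Fcna at 0 in library 1. For this list and those that follow, the shares over all genes tested were 46.4% higher in library 2 and 23.9% higher in library 1. The monocyte list was mixed, with 3 higher in library 1, 3 higher in library 2 and 1 not called, and a summed TPM of 107.0 in library 1 and 152.8 in library 2. Ccr2, a chemokine receptor of monocytes that activated T cells also use, made up most of that sum, with 63.91 TPM in library 1 and 128.16 TPM in library 2. Of the endothelial markers, 6 of 7 tested were higher in library 2, but the list summed to 86.29 in library 1 and 88.47 in library 2, of which Pecam1, also found on leukocytes, was 83.15 and 76.37, and Kdr was at 0 in library 1. The NK cell list summed to 191.6 in library 1 and 313.5 in library 2, with 3 of 4 tested higher in library 2 and Ncr1 at 0 in library 1 and 0.26 TPM in library 2. The neutrophil list summed to 2.72 in library 1 and 8.44 in library 2, with 1 of 5 tested higher in library 1, 4 higher in library 2, and S100a8, Ly6g and Elane at 0 in both. The part of these cells in the Ly6c2 and Ly6c1 results was not tested.

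The split between the Ly6C genes moved with the libraries. Ly6c1 took 85.7% of the TPM of the pair in library 1 and 75.9% in library 2. By counts of the large table the share was 85.3% in library 1 (95% Wilson interval 84.2 to 86.3) and 75.2% in library 2 (74.0 to 76.4). The small table gave a lower share, 73.9% in library 1 (69.9 to 77.5) and 65.9% in library 2 (61.9 to 69.6). In either table the interval of library 1 lay above that of library 2, and within a library the intervals of the 2 tables did not overlap. The level of the Ly6c1 share therefore depended on the table, while its order between the libraries did not.

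The small table counted whole reads against an older annotation, and it reduced the 6 genes very unequally. Ly6e had 1011 counts there in library 1 and 1003 in library 2, which is 2.51% and 2.89% of its counts in the large table. Ly6a kept 7.54% in library 1 and 8.55% in library 2, and Ly6c1 10.4% and 10.3%. Ly6c2 kept 21.3% in library 1 and 16.2% in library 2, Thy1 32.9% and 30.3%, and Ly6d 46.8% and 48.0%. Over all genes with at least 100 counts, the median was 45.4% in library 1 and 46.2% in library 2, so Ly6d stood near it and the more abundant members far below.

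The same grading was seen across all genes as a description. Genes with at least 5 large-table counts per transcript base kept a median of 7.54% in library 1 (415 genes) and 7.45% in library 2 (311 genes), whereas genes with at most 0.5 kept 51.6% and 51.0%. The genes at 5 or more had a median of 0.847 small-table counts per base in library 1 and 0.798 in library 2. Ly6e, at 0.897 and 0.892, and Ly6a, at 0.806 and 0.815, sat close to that level, although the large table gave 35.7 and 30.9 counts per base for Ly6e and 10.7 and 9.54 for Ly6a. Ly6c1 was at 0.453 and 0.461. How reads were filtered before the small table was made is not given in the sources used here, so the cause was not tested, and levels of the members were taken from the large table only.

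**Figure D4:**
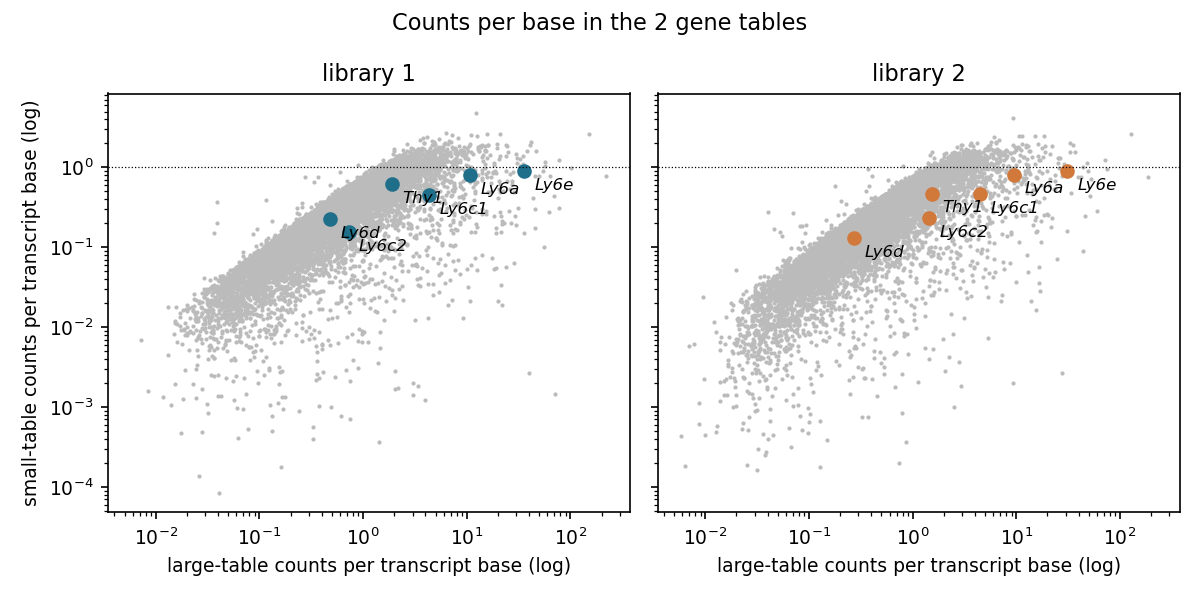
Small-table counts against large-table counts, both per transcript base on log scales, for all genes with at least 100 large-table counts (grey) and the 6 members (coloured), in library 1 (left) and library 2 (right), with a dotted line at 1 count per base. The share kept falls along the members from Ly6d, at 46.8% and 48.0%, to Ly6e, at 2.51% and 2.89%, and Ly6e and Ly6a lie just under the dotted line.

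Between the libraries, the small table was read for the members that lay below the counts per base of the most abundant genes. Ly6c2 had 133 counts in library 1 and 199 in library 2, a log2 ratio of -0.76 (-1.091 to -0.440), 1.70-fold higher in library 2 (exact binomial test, adjusted p = 9.51e-06). Ly6d had 169 counts in library 1 and 97 in library 2, a log2 ratio of 0.62 (0.250 to 0.994), 1.53-fold higher in library 1 (adjusted p = 0.00187). Both calls were kept, and the Ly6c2 difference was smaller than in the large table. Ly6c1, with 377 counts in library 1 and 384 in library 2, was at -0.21 and lost its call (adjusted p = 0.079). Those counts were nearly equal as well, and Ly6c1 kept only 10.4% and 10.3% of its large-table counts. The part of this reduction in the lost call was not tested. Thy1 was at 0.10 with no call (adjusted p = 0.424). Ly6a, with 661 counts in library 1 and 667 in library 2, and Ly6e sat at the level per base described above with nearly equal counts in the libraries. Their log2 ratios of -0.20 (adjusted p = 0.0284) and -0.17 (adjusted p = 0.0167) therefore carry the division by unequal totals, and no difference in level is read from them. The calls of the small table stand beside a share of 54.3% called among the 14432 genes tested there, 22.1% higher in library 1 and 32.2% higher in library 2.

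The transcript table showed which annotated forms carried each gene. Ly6e-215, a protein-coding form of 1122 bases, held 92.6% of the TPM of Ly6e in library 1 and 91.9% in library 2, among 16 annotated transcripts of which 4 were at 0 in both. The retained-intron form Ly6e-216 held 3.25% and 3.14%. Ly6a-201 held 98.6% of Ly6a in library 1 and 99.3% in library 2, and Ly6c2-201 held 98.0% and 97.9% of Ly6c2. Ly6d has 1 annotated transcript. These genes were thus each carried by 1 protein-coding form, in like shares in both libraries.

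Ly6c1 was divided mainly between 2 forms. Ly6c1-201 had 175.76 TPM in library 1 and 181.79 TPM in library 2, and Ly6c1-202 had 85.97 in library 1 and 152.84 in library 2. The share of Ly6c1-202 was thus 31.0% in library 1 and 43.5% in library 2. Its posterior SD was 319.66 counts on 1125.64 in library 1 and 349.36 counts on 1635.95 in library 2, so the division of Ly6c1 between these forms was only loosely determined in either library.

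Thy1 was spread over more forms. Of its TPM, Thy1-203, a processed transcript of 449 bases with no annotated protein, held 32.0% in library 1 and 36.9% in library 2. The protein-coding form Thy1-201, of 1735 bases, held 17.8% in library 1 and 22.2% in library 2. By counts, which do not divide by length, Thy1-201 led with 44.5% in library 1 and 50.6% in library 2, and Thy1-203 held 19.0% and 20.0%. The short coding forms Thy1-204 and Thy1-205 had 21.57 and 29.86 TPM in library 1, and 32.38 and 8.66 TPM in library 2, with posterior SDs between 19.16 and 29.18 counts. The stable TPM of the gene, 122.41 in library 1 and 121.85 in library 2, thus summed forms that each varied, and the leading form of Thy1 depended on whether length was divided out.

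**Figure D5:**
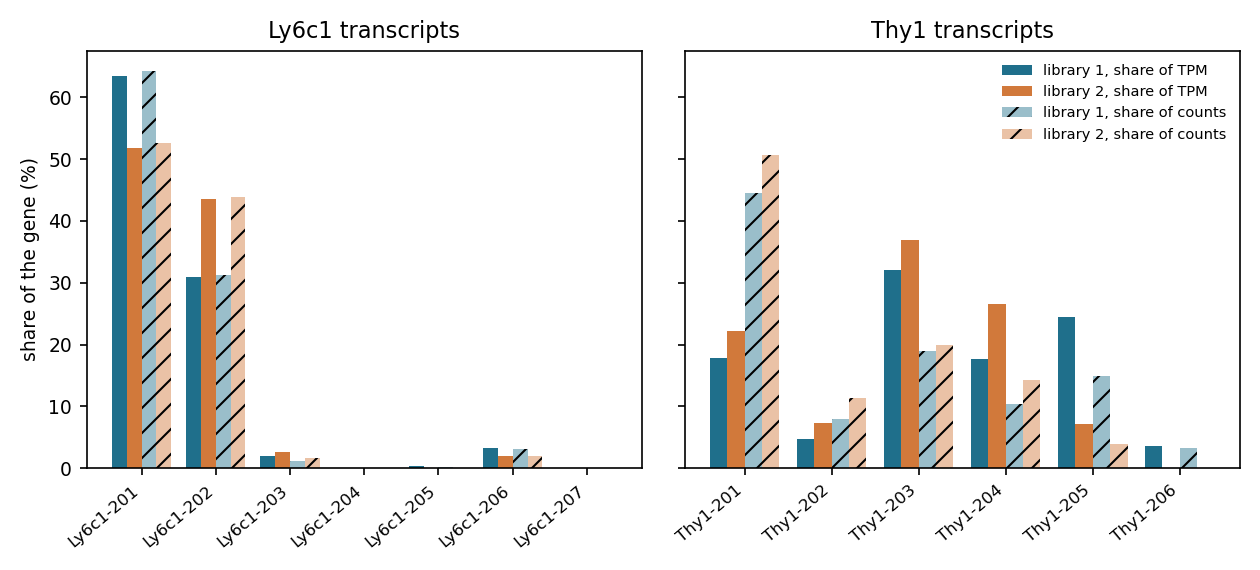
Share (%) of each annotated transcript in Ly6c1 (left) and Thy1 (right), by TPM (filled bars) and by expected counts (hatched bars), in library 1 (blue) and library 2 (orange). Ly6c1 divides mainly between 2 forms by either measure, whereas the leading Thy1 form is Thy1-203 by TPM and Thy1-201 by counts.

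Beyond the members, transcripts of the Ly6 and uPAR family were few. Of 38 listed relatives 34 were matched, 7 were detected and 11 had 0 counts in both libraries, and their summed TPM was 18.95 in library 1 and 31.23 in library 2, against 3412.1 and 3735.0 for the 6 members. Lypd6b led them with 5.86 TPM in library 1 and 4.24 TPM in library 2, and was called 1.65-fold higher in library 1 (exact binomial test, adjusted p = 6.85e-05). Ly6k, at 2.45 in library 1 and 4.64 in library 2, and Lynx1, a modulator of nicotinic receptors, at 1.06 and 3.15, were called higher in library 2, although Lynx1 had a log2 ratio of 0.27 in the small table. Of 13 relatives tested, 1 was called higher in library 1, 8 higher in library 2 and 4 not, beside 23.9% and 46.4% of all genes. The median log2 ratio was -1.13 against -0.23 over all genes tested. Among the 8, Ly6g6c, Lypd3 and Psca had 0 counts in library 1 and 16, 20 and 16 in library 2. Low counts shift this median, which over all genes with at least 50 counts was -0.05, so nothing particular to the family is read from it.

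All 29 genes of GPI anchor synthesis, on which surface display of these proteins depends, were detected. Their summed TPM was 1202 in library 1 and 1239 in library 2. Pigx, a subunit of the first mannose transfer, had 117.1 TPM in library 1 and 131.68 TPM in library 2 and was not called. Of the 29, 12 were called higher in library 1 (12 with TMM factors), 10 higher in library 2 (6 with TMM factors) and 7 were not. Over all genes tested the shares were 23.9% and 46.4%, and with TMM factors 30.1% and 40.5%. The median log2 ratio was -0.04, against -0.01 over the detected genes tested. Dpm1, which supplies the mannose donor, was 1.28-fold higher in library 1, and Mppe1, a remodelling enzyme of the anchor, 1.28-fold higher in library 2. The largest ratios were those of the inositol deacylase Pgap1, 2.24-fold higher in library 1, and of the ethanolamine phosphate transferase Pigo, 2.31-fold higher in library 2. Genes of the pathway were thus called in both directions.

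Other GPI-anchored proteins of lymphocytes were abundant beside Ly6e and Ly6a. Cd52 had 2192.22 TPM in library 1 and 2115 TPM in library 2, against 2248.95 and 2381.18 for Ly6e. H2-Q7, a nonclassical class I molecule whose reads may be shared with close copies, had 1618.75 in library 1 and 1745.7 in library 2. Izumo1r, the folate receptor relative of regulatory T cells, had 480.87 in library 1 and 341.76 in library 2. Of 15 listed, 14 were matched and 12 were detected. Of 12 tested, 6 were called higher in library 1, 2 higher in library 2 and 4 were not, but with TMM factors 9 and 0. The shares over all genes tested were 23.9% and 46.4%, and with TMM factors 30.1% and 40.5%. Cd24a, an antigen of B cells, thymocytes and red cells, was the most uneven, with 50.79 TPM in library 1 and 4.09 TPM in library 2, beside the higher B cell and erythroid markers of library 1.

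Interferon-response genes were set beside Ly6a and Ly6e, which interferon induces. Of 15 listed, 14 were detected, with a summed TPM of 1774 in library 1 and 1858 in library 2. Irf1, at 324 in library 1 and 351.72 in library 2, and Igtp, at 258.36 and 262.11, were not called. The antiviral genes Oasl2, at 25.1 in library 1 and 15.63 in library 2, and Rsad2, at 1.72 and 5.07, had the largest ratios in each direction among called genes of the list with at least 100 counts. Of the 15, 3 were called higher in library 1 (6 with TMM factors), 9 higher in library 2 (8 with TMM factors) and 3 were not. Beside these stand 23.9% and 46.4% of all genes tested, and with TMM factors 30.1% and 40.5%. The median log2 ratio was -0.27, against -0.23 over all genes tested and -0.01 over the detected genes tested.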

How the data were processed

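PolyA RNA-seq of 1 group was analysed, with 2 technical libraries of 1 biological replicate. The large gene and transcript tables hold expected counts, which share reads among the genes they map to, and TPM and FPKM, which divide by effective length, as deposited by the authors from transcriptome alignments (mm10, GENCODE M21), per the deposited description and the file headers. Isoform shares in the transcript table are deposited as a percent of the gene; the shares printed here were recomputed from TPM and counts. The small table holds deposited whole-number counts, for which the description names mm10 and GENCODE M4. Not given in the sources used here: aligner, quantifier, counter, duplicate removal and strand use. Effective length equals length minus 49 in nearly all rows. Spike-in and bare-number rows (0.201% and 0.235% of counts) were left out of totals.

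Expected counts were rounded and compared with a 2-sided exact binomial test (scipy 1.17.1) against the library share, for genes with at least 10 counts summed, Benjamini-Hochberg adjusted over all 24253, with 0.5 counts added for ratios of library 1 over library 2. Intervals (Wilson for shares) and floors cover counting error only, since PCR copies are not independent molecules. Alternatives were TMM (edgeR 4.0.16) and DESeq2 1.42.0 size factors in R 4.3.3, other filters and pseudocounts, TPM and FPKM ratios, the small table and each library alone. On simulated counts of this comparison (55536 genes), 87 of 100 genes changed 1.5-fold and 98 of 100 changed 2-fold were called, with 4 of 24098 unchanged genes. The simulated counts held counting error only, and the changed genes were drawn from those with at least 100 counts. They therefore cannot show how often genes are called where libraries differ by more than counting error. Members and lists were chosen with earlier results of these data known. Besides the members, the text names from each list that is not a cell type list the 3 genes with the highest mean TPM and the called gene with the largest ratio in each direction (at least 100 counts), and from each cell type list the 2 highest. Of the genes this rule takes, 1 is not reported here. Other genes were named after their values were seen. Coding sequences and shared windows came from GENCODE M21 transcripts.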

Additional observations from a re-analysis of the deposited data

How the results depend on the processing

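No paired analysis was possible because the study has 1 group. The mean TPM over each library alone lay between 2248.95 and 2381.18 for Ly6e, 685.74 and 747.62 for Ly6a, 277.34 and 351.16 for Ly6c1, 121.85 and 122.41 for Thy1, 46.35 and 111.74 for Ly6c2, and 21.42 and 31.30 for Ly6d, so that Ly6c2 rests on the library used. The Ly6c1 share of the Ly6C pair lay between 75.9% and 85.7%, and the mean share by small-table counts was 69.9%. The number of genes called, 17040, was 10878 at a minimum of 50 counts and 7831 in the small table, which test fewer genes. Log2 ratios turned with TMM factors to 0.006 for Ly6a, 0.05 for Ly6e and 0.002 for Thy1, with DESeq2 size factors to 0.042, 0.086 and 0.038, and in the small table to 0.10 for Thy1, which was not called there or with library totals. The small table put Ly6c1 at -0.21 with no call. Ratios of TPM were -0.082 for Ly6e and 0.007 for Thy1, and the ratio of FPKM for Thy1 was 0.027. By counts in place of TPM, Ly6c2-201 held 93.3% and Thy1-203 19.5% of their genes. Shared windows were 36.7% (Ly6c1), 33.0% (Ly6c2) and 8.05% (Ly6a) at 50 bases, and 15.3%, 15.8% and 0.0% at 100. The ratios that turned with TMM factors and DESeq2 size factors did so through the scaling shift by construction. TPM and FPKM also divide by length, and the mean transcript length of Thy1 was 722.98 bases in library 1 and 788.21 in library 2. For the small table the cause was not tested. Ly6c2 and Ly6d kept direction and call in every alternative with a test. Depth limits Ly6d most, at 361 and 202 counts.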

Other observations

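Of the marker lists not set beside a gene above, the 7 fibroblast markers summed to 1.98 TPM in library 1 and 5.09 TPM in library 2, with 3 of 4 tested called higher in library 2 and 1 in library 1. The 6 plasma cell markers summed to 122.0 TPM in library 1 and 133.6 TPM in library 2, with 1 of 6 tested called higher in library 1, 3 higher in library 2 and 2 not called. Over all genes tested, 23.9% were called higher in library 1 and 46.4% higher in library 2.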
